A study of Homo sapiens with 6 samples.

Results

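The genes described here are 36 genes of protein folding in the endoplasmic reticulum (ER) and of the unfolded protein response (UPR), taken from a table of 35009 genes by their symbols. They were set out as 13 chaperones and lectins, 6 disulfide enzymes, 10 genes of ER-associated degradation (ERAD), 6 stress sensors and transcription factors, and SEC61B, a subunit of the translocon, the channel through which new proteins enter the ER. Each of the 36 symbols had 1 row, and all 36 passed the filter on low counts that 19944 genes of the table passed. The measurements were polyA RNA-seq of macrophages made from the THP-1 line, which comes from a human monocytic leukaemia, that had been treated with ox-LDL (oxidised low-density lipoprotein, which loads macrophages with lipid). The 3 control libraries are labelled control, and the other 3 are labelled as MCT4-deficient and named siMCT4, for a small interfering RNA against MCT4, the lactate exporter encoded by SLC16A3. Both groups carry the ox-LDL treatment, so there is no library without it. The sources used here give neither the dose and time of ox-LDL nor whether a control siRNA was used. The labels do not say whether the libraries of a group came from separate cultures, so the p-values measure the spread between these libraries, which may be technical.

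Proteins that enter the secretory pathway fold in the ER with the help of chaperones such as BiP (HSPA5), of the sugar-binding chaperones calnexin and calreticulin, and of enzymes that form disulfide bonds. Proteins that fail to fold are recognised, moved back through the membrane and degraded by ERAD. When unfolded protein builds up, the sensors IRE1 (ERN1), PERK (EIF2AK3) and ATF6 start the UPR, which through XBP1 and cleaved ATF6 raises transcription of many of the chaperone and ERAD genes described here. Macrophages secrete and display many proteins, and ER stress is a known feature of lipid-loaded macrophages.

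The libraries held 61880619 to 69181938 counts each. The siRNA target SLC16A3 had 115, 101 and 108 CPM (counts per 1000000 counts, scaled by edgeR's TMM factors) in the controls and 10.8, 11.0 and 13.4 CPM in siMCT4, a log2 change of -3.20 (SE 0.102, adjusted p = 1.12e-06). All 10 macrophage markers examined were measured. Of these, 1 rose and 6 fell in siMCT4, CSF1R by 0.87 on the log2 scale, and their summed level was 4253 to 4308 CPM in the controls and 3341 to 3474 CPM in siMCT4. Of 12 markers of other cell types, 7 were measured, and they summed to 6.58 to 9.62 CPM in every library, with CD79A at 0.315 CPM in the controls and 2.37 CPM in siMCT4. The siMCT4 libraries did not behave alike: among 1297 genes with a GC content of at least 60%, the median log2 ratio to the controls was -0.53, -0.57 and -0.18 in siMCT4 libraries 1, 2 and 3. The ER genes had GC contents of 34.9% to 65.5%, and only SDF2L1 lay above 60%. What part the macrophage markers or the GC pattern have in the results that follow was not tested, beyond the values given beside them.

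Transcription of these genes is known to run through short promoter elements, and their letters are shown here because the genes that hold them are set apart again beside the expression values. The ER stress response element (ERSE) was searched as CCAAT, 9 bases of any kind, then CCACG, and ERSE-II as ATTGG, 1 base, then CCACG, each on both strands. The windows were those of RefSeq on GRCh38.p14, from 250 bases before to 50 bases after each transcription start. RefSeq windows were found for 33 of the 36 genes. ERSE was present in 8 of the 33 genes and ERSE-II in 3 others. Over all 27305 gene symbols with a window, the 33 among them, 25 (0.0916%) had ERSE and 19 (0.0696%) had ERSE-II. These elements were defined in the literature on genes of this kind, so that their presence here is a description. Each is printed 5′ to 3′ on the strand of its gene, with the element's fixed letters in capitals and 5 bases on either side, and CGTGG followed later by ATTGG is ERSE read on the other strand.
HSPA5, chr9:125241386-125241414, minus strand: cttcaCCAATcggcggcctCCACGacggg
HSP90B1, chr12:103930211-103930239, plus strand: cctgaCCAATcggaaggagCCACGcttcg
HSP90B1, chr12:103930316-103930344, plus strand: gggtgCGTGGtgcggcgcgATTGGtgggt
CALR, chr19:12938379-12938407, plus strand: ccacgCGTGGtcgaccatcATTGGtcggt
CANX, chr5:179698773-179698801, plus strand: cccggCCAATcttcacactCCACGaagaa
PDIA6, chr2:10812848-10812876, minus strand: ccggaCCAATgagccgcagCCACGgcttg
XBP1, chr22:28800598-28800626, minus strand: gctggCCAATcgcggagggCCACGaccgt
CRELD2, chr22:49918549-49918577, plus strand: cctctCGTGGcgaactcggATTGGgccat
ERO1B, chr1:236282178-236282206, minus strand: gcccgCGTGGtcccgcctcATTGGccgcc
HERPUD1, chr16:56932020-56932040, plus strand: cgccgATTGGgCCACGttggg
HYOU1, chr11:119057375-119057395, minus strand: cgtgaCGTGGtCCAATcccag
HYOU1, chr11:119057269-119057289, minus strand: tgggaCGTGGtCCAATgagta
SDF2L1, chr22:21642109-21642129, plus strand: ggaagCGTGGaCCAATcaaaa

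The UPR element TGACGTGG was in a window of 1 of the 33 genes, HYOU1, and of 0.927% of all symbols. In HYOU1 it overlaps the first of the printed ERSE-II elements. TGACGTCA, the cyclic AMP response element, was in a window of 1, CREB3L2, and of 2.25% of all symbols. The separate motifs were common: CCAAT was in the windows of 27 of the 33 genes and of 39.7% of all symbols, and CCACG in those of 23 and of 42.1%.

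In siMCT4, genes of ER folding and the UPR moved in both directions: 8 of the 36 were higher, 14 were lower and 14 did not pass the test (edgeR's quasi-likelihood test, adjusted p under 0.05 by Benjamini-Hochberg over all tested genes, which gives every adjusted p below unless another tool is named). The called share of the 36 was 61.1%, against 41.4% of all tested genes called in either direction, 20.6% called higher and 20.8% called lower. These genes are well expressed, however: 34 of them averaged at least 10 CPM, of which 21 were called (61.8%), against 60.4% of all genes at that level. Their called share was therefore close to that of all genes above this floor, which were not matched to them in abundance. In 26 of the 36, the 3 control and 3 siMCT4 values did not overlap, against 55.0% of all tested genes. The 55.0% includes scarce genes, and no such share is given for genes at 10 CPM or more. The median log2 change of the 36 was -0.11, beside -0.01 over all tested genes.

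Sizes of change were small. The median size was 0.267 on the log2 scale among the 36 and 0.427 among all tested genes, and at 10 CPM or more it was 0.249 beside 0.328. DERL3, the scarcest of the 36, was the only 1 that was called and changed at least 2-fold, whereas 13.1% of all tested genes were. Among all genes at 10 CPM or more, a level DERL3 did not reach, 9.28% changed at least 2-fold, called or not. DERL3 passed the filter on low counts through its control values, so the direction of its change is no support. Apart from it, the called genes ran from a fall of 0.67 in HERPUD1 to a rise of 0.53 in DNAJC3 and PDIA4. The siMCT4 library 3, whose GC-rich genes lay nearer the controls, was compared with the mean of siMCT4 libraries 1 and 2. It was over 0.2 above that mean in 6 of the genes (DNAJB9, SDF2L1, CRELD2, P4HB, ERO1A and SYVN1). It was over 0.2 below that mean in 4 (HYOU1, DERL3, OS9 and SEC61B), in DERL3 on 10, 8 and 7 counts in siMCT4 libraries 1, 2 and 3. Without that library, 18 of the 36 genes were called lower and 12 higher. Calls over all tested genes also changed with the fit, from 6569 to 9708 across 17 alternative fits, beside 8260 in the main fit. The share of all tested genes called in the fit without library 3 is not given here. The 18 and 12 are therefore no result about the ER genes alone. By library, the 36 genes had median log2 ratios of -0.16 (siMCT4 library 1), -0.19 (library 2) and -0.10 (library 3) against the controls. Fits with library 3 as the only siMCT4 library assume that the lone library varies like the controls.

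**Figure D1:**
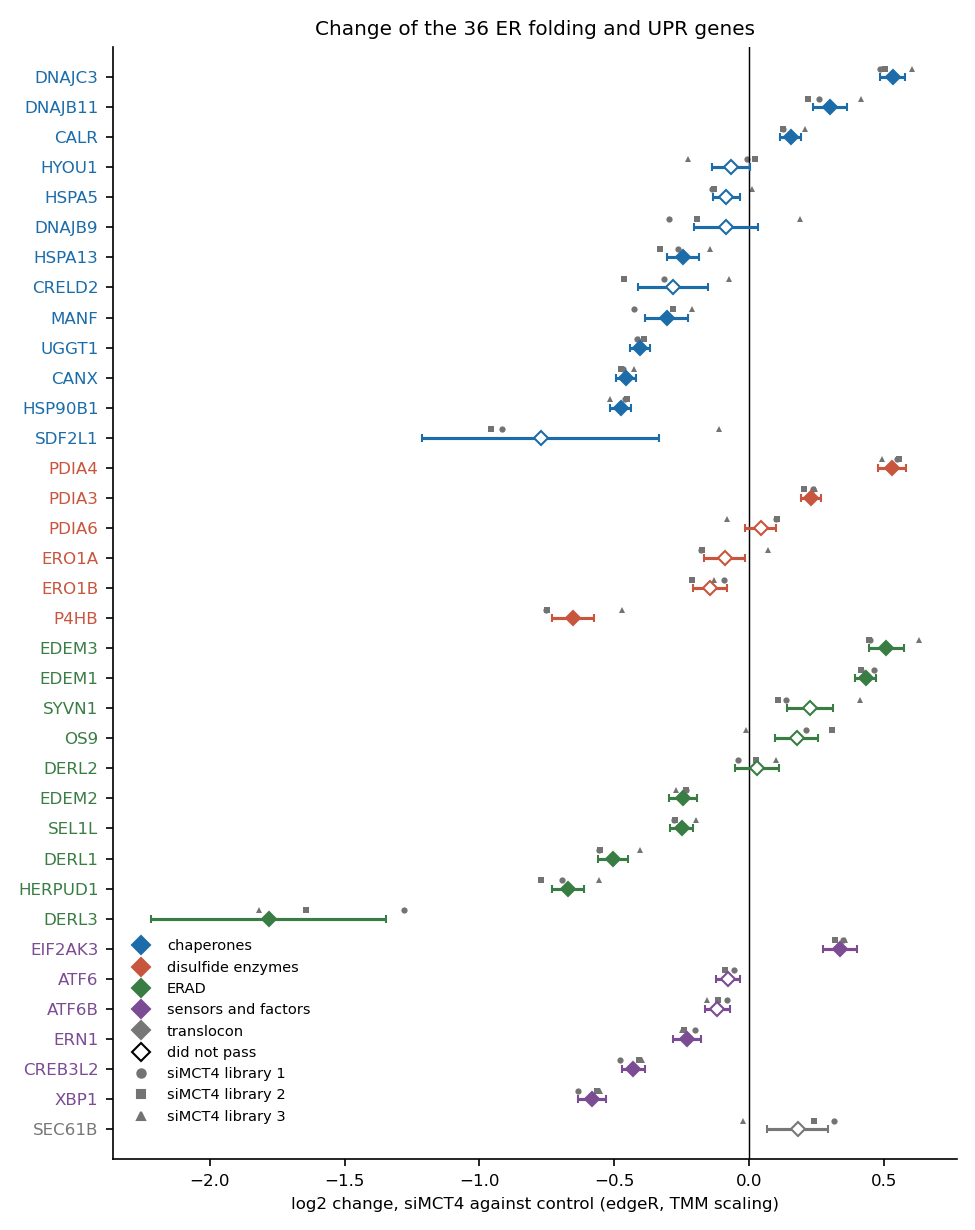
The log2 change in siMCT4 against control is plotted for each of the 36 genes, grouped by role; diamonds with bars are the edgeR estimate ± SE, open where the gene did not pass, and small grey symbols are the 3 siMCT4 libraries relative to the control mean. Chaperones, ERAD genes and sensors each have called genes on both sides of 0. DERL3, which passed the filter on low counts only through its control values, lies farthest out at -1.78.

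The steady-state levels of the 36 genes spanned a wide range per length, as shown by the deposited FPKM (fragments per kilobase of gene, scaled to library size). FPKM is used here for the order of genes within a library and for ratios within a library, because it is not scaled by TMM and put all tested genes' change 0.0923 higher in the median when tested as log2(FPKM + 1). The order rests on the gene lengths used for FPKM and differs in CPM: in the controls P4HB averaged 1284 CPM and PDIA6 545 CPM. CALR, calreticulin, had the highest FPKM, with 405 ± 7.21 FPKM in the controls and 485 ± 15.2 FPKM in siMCT4 (SD, n = 3). HSPA5 followed with 201 ± 4.52 and 205 ± 11.7 FPKM, and PDIA6 with 119 ± 3.94 and 132 ± 9.69 FPKM. P4HB at 103 ± 3.26 FPKM and CANX at 92.1 ± 2.31 FPKM came next in the controls, and in siMCT4 these neighbours stood at 70.8 ± 7.97 and 72.3 ± 1.11 FPKM, within their spread of each other. At the low end of FPKM were the sensors ERN1 (2.79 ± 0.102 FPKM in controls) and EIF2AK3 (1.93 ± 0.116), the oxidase ERO1B (1.75 ± 0.0652) and DERL3 (0.0943 ± 0.0147). Summed over the 36 genes, the share of all FPKM was 0.615%, 0.623% and 0.598% in the controls and 0.674%, 0.671% and 0.703% in siMCT4. The direction of the sum depends on the scale: in TMM-scaled CPM the 36 genes summed to 10817, 10876 and 10632 in the controls and to 9663, 9673 and 10053 in siMCT4, so that every siMCT4 library was below every control. FPKM weights genes by length. Dividing by the summed FPKM, as in TPM, raised the log2 change of single genes by a median of 0.189 over all tested genes, when tested as log2(TPM + 1).

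**Figure D2:**
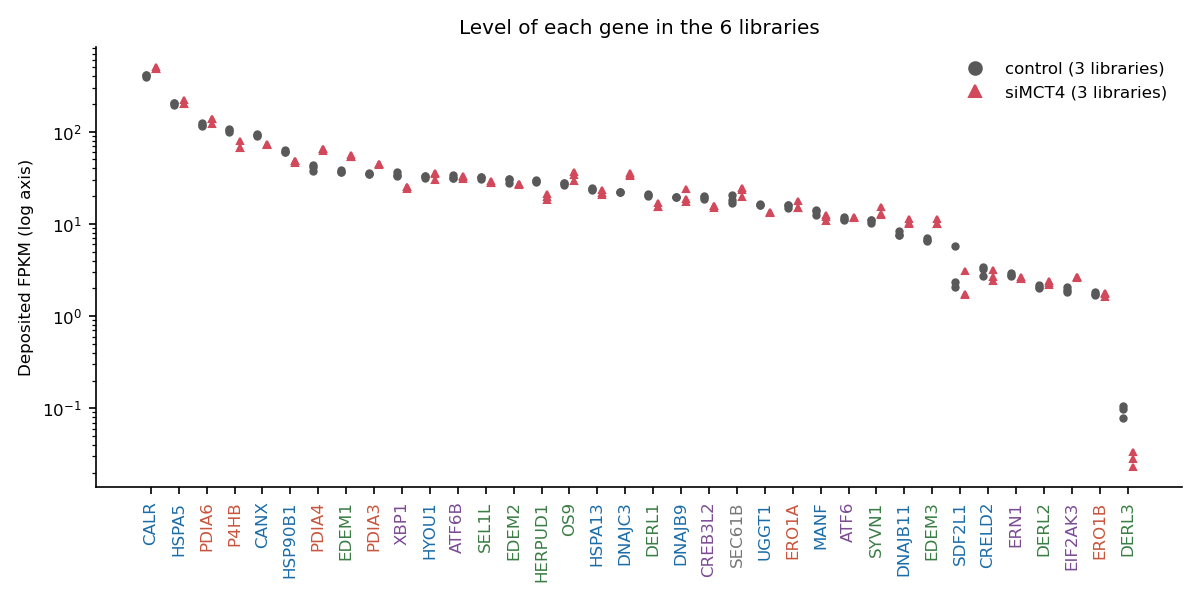
Deposited FPKM (log axis) of each gene in the 3 control (grey circles) and 3 siMCT4 (red triangles) libraries, ordered by the control mean, with the gene names coloured by role as in the plot of changes. Levels run from 405 FPKM for CALR to 0.0943 FPKM for DERL3 in the controls, and the libraries of SDF2L1 are spread widely in both groups.

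Among the 13 chaperones and lectins, 5 fell, 3 rose and 5 did not pass. Their median log2 change was -0.25, with library medians of -0.30, -0.28 and -0.11 in siMCT4. HSPA5 (ENSG00000044574, chr9:125234853-125241382, GRCh38), the Hsp70 chaperone of the ER lumen and the standard marker of the UPR, had 1482, 1477 and 1446 CPM in the controls and 1334, 1340 and 1479 CPM in siMCT4. The groups overlapped, since siMCT4 library 3 lay within the controls, and the log2 change was -0.08 (SE 0.0494, adjusted p = 0.213). Without siMCT4 library 3 it was -0.11 with an adjusted p of 0.0131. Calnexin, CANX (ENSG00000127022, chr5:179678628-179731622), the membrane lectin that holds newly glycosylated proteins, had 1420, 1433 and 1394 CPM in the controls and 1023, 1019 and 1052 CPM in siMCT4. Every siMCT4 value lay below every control, and the log2 change was -0.46 (SE 0.0357, adjusted p = 6.29e-05).

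HSP90B1 (ENSG00000166598, chr12:103930107-103948015), which encodes GRP94, the ER Hsp90 that folds Toll-like receptors and integrins, had 874, 908 and 891 CPM in the controls and 647, 650 and 623 CPM in siMCT4. The 3 siMCT4 libraries were close together and all below the controls, a fall of 28.2% (log2 change -0.48, SE 0.0383, adjusted p = 7.18e-05). Its promoter holds 2 of the ERSE copies printed above. UGGT1, the glucosyltransferase that returns misfolded glycoproteins to calnexin and calreticulin, had 205, 207 and 205 CPM and then 154, 157 and 155 CPM, a fall of 0.41 (SE 0.0373, adjusted p = 0.000141). The libraries of each group differed by no more than a few CPM. CALR (ENSG00000179218, chr19:12938578-12944489), the soluble partner of calnexin in the same cycle, had 1279, 1265 and 1253 CPM in the controls and 1379, 1381 and 1461 CPM in siMCT4. It thus moved opposite to CANX and UGGT1, with a log2 change of 0.15 (SE 0.0391, adjusted p = 0.017). That call was lost when any 1 of the controls was left out, with adjusted p of 0.0514, 0.0831 and 0.0706 without control 1, 2 and 3.

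The co-chaperones with a J domain, which drive the ATPase of BiP, were higher in part. DNAJC3 (ENSG00000102580, chr13:95677139-95794988), known as p58IPK, which also inhibits PERK, had 138, 136 and 139 CPM in the controls and 193, 196 and 209 CPM in siMCT4. It rose by 44.4% with no overlap (log2 change 0.53, SE 0.0461, adjusted p = 0.000106). DNAJB11, ERdj3, had 80.4, 85.8 and 81.0 CPM and then 98.6, 95.7 and 110 CPM, a rise of 0.30 (SE 0.0636, adjusted p = 0.0078). DNAJB9, ERdj4, which represses IRE1, had 55.5, 55.4 and 55.7 CPM in the controls and 45.2, 48.5 and 63.2 CPM in siMCT4. Here siMCT4 libraries 1 and 2 lay below all controls and library 3 above them, and the change was -0.09 (SE 0.119, adjusted p = 0.607). Without siMCT4 library 3 it was -0.22 (adjusted p = 0.00844), and with that library alone 0.21 (adjusted p = 0.0409). Reads of DNAJB11 and of TBCCD1 on the opposite strand, with 11.7% as many counts, may be mixed where the genes overlap, because the sources used here do not give the strand setting of the counting.

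The smaller chaperones and secreted factors gave 2 calls. HSPA13, an Hsp70-like ATPase of the microsomes, had 114, 109 and 108 CPM and then 91.9, 87.9 and 99.9 CPM, with a log2 change of -0.25 (SE 0.0591, adjusted p = 0.0132). MANF, a secreted UPR target that protects stressed cells, had 30.1, 33.1 and 33.3 CPM and then 23.9, 26.4 and 27.8 CPM, with a change of -0.31 (SE 0.0801, adjusted p = 0.0187). Neither gene's groups overlapped, but each call was lost in 4 of the 6 fits that left out 1 library. The adjusted p of HSPA13 was then 0.0765 and 0.0579 without control 1 and 2, and 0.0679 and 0.0665 without siMCT4 library 1 and 2. That of MANF was 0.0831 and 0.0757 without control 2 and 3, and 0.0818 and 0.0576 without siMCT4 library 1 and 2. HYOU1, GRP170, the nucleotide exchange factor of BiP, had 250, 250 and 240 CPM and then 245, 250 and 211 CPM, a change of -0.07 (SE 0.0691, adjusted p = 0.472). Only siMCT4 library 3 was below the controls there.

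CRELD2, a secreted UPR target, had 15.8, 19.5 and 18.7 CPM in the controls and 14.4, 13.0 and 17.0 CPM in siMCT4 (log2 change -0.28, SE 0.129, adjusted p = 0.122). The groups overlapped through siMCT4 library 3, and without it the change was -0.37 (adjusted p = 0.0271). ALG12 overlaps CRELD2 on the opposite strand with 88.3% as many counts, so the 2 genes may share reads. SDF2L1, a partner of ERdj3 and BiP, had 6.88, 2.44 and 2.85 CPM and then 1.91, 1.86 and 3.36 CPM. Control library 1 and siMCT4 library 3 stood high, and the change of -0.77 had an SE of 0.439 (adjusted p = 0.203). With a GC content of 65.5%, SDF2L1 was the most GC-rich of the 36 genes. Its siMCT4 library 3 lay 0.82 on the log2 scale above the mean of the other siMCT4 libraries. After correction for GC content its change was -0.07 (adjusted p = 0.904), and without control library 1 it was -0.14 (adjusted p = 0.778).

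The 6 disulfide enzymes divided between rising isomerases and a falling P4HB: 2 rose, 1 fell and 3 did not pass, with a median log2 change of -0.02 (0.08 on log2(FPKM + 1)). PDIA4 (ENSG00000155660, chr7:149003062-149028662), ERp72, had 153, 157 and 141 CPM in the controls and 219, 220 and 211 CPM in siMCT4. Every siMCT4 library was far above the controls, and the gene rose by 44.4% (log2 change 0.53, SE 0.0522, adjusted p = 0.000194). PDIA3, ERp57, which works with calnexin and calreticulin on glycoproteins and in loading of MHC class I, had 467, 455 and 462 CPM and then 544, 531 and 546 CPM. It rose by 0.23 (SE 0.0364, adjusted p = 0.00205), and its near-identical copy PDIA3P1 had 5.00% as many counts.

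P4HB (ENSG00000185624, chr17:81843159-81860624), the founding protein disulfide isomerase, had 1291, 1307 and 1254 CPM in the controls and 761, 764 and 925 CPM in siMCT4. All siMCT4 values lay far below the controls, with library 3 the nearest, and the fall was 36.4% (log2 change -0.65, SE 0.0781, adjusted p = 0.000506). This gene has a GC content of 58.4%, and its change was -0.45 after correction for GC content and passed the test there too. PDIA6, P5, had 534, 559 and 542 CPM and then 584, 585 and 515 CPM (log2 change 0.04, SE 0.0579, adjusted p = 0.599). siMCT4 library 3 lay below all controls and the others above. Without that library the change was 0.13 (adjusted p = 0.0149).

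The 2 oxidases that reoxidise the isomerases did not pass. ERO1A, the form induced by hypoxia, had 137, 132 and 128 CPM and then 117, 117 and 139 CPM (log2 change -0.09, SE 0.0752, adjusted p = 0.371). Without siMCT4 library 3, the highest of the 6 values, its change was -0.15 (adjusted p = 0.0191). ERO1B had 30.1, 30.8 and 29.2 CPM and then 28.1, 25.9 and 27.4 CPM, a change of -0.15 (SE 0.0632, adjusted p = 0.107) without overlap.

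In ERAD, 5 of 10 genes fell, 2 rose and 3 did not pass, with a median log2 change of -0.11 (0.08 on log2(TPM + 1)). The genes that fell include parts of the membrane complex that moves substrates out of the ER. HERPUD1 (ENSG00000051108, chr16:56932142-56944864), a scaffold of the HRD1 ligase and a UPR target, had 165, 165 and 161 CPM in the controls and 101, 96.0 and 111 CPM in siMCT4. The fall was 37.2% with no overlap (log2 change -0.67, SE 0.0604, adjusted p = 0.000126). DERL1, a rhomboid-like channel protein, had 156, 163 and 163 CPM and then 109, 109 and 121 CPM, a fall of 0.50 (SE 0.0556, adjusted p = 0.000343). SEL1L, the adaptor of HRD1, had 342, 336 and 329 CPM and then 276, 277 and 292 CPM. Its siMCT4 values were all lower than the controls (log2 change -0.25, SE 0.0421, adjusted p = 0.00257). TBC1D31 overlaps DERL1 on the opposite strand with 15.9% as many counts.

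SYVN1, which encodes the HRD1 ubiquitin ligase itself, had 67.2, 66.5 and 63.4 CPM in the controls and 72.2, 70.6 and 87.3 CPM in siMCT4. The groups did not overlap, and library 3 stood highest, but the change of 0.22 did not pass (SE 0.0858, adjusted p = 0.0743). It passed in 9 of 17 alternatives, always higher, among them DESeq2 (0.24, adjusted p = 0.0397), the GC correction (0.33, adjusted p = 0.027), and the fits without siMCT4 library 2 (0.30, adjusted p = 0.0408) or library 3 (0.15, adjusted p = 0.0334). Its adjusted p ranged from 0.00238 to 0.214 over the 17. FAU on the same strand and MRPL49 on the opposite strand overlap SYVN1 with 58.6% and 38.5% as many counts, so its values are uncertain. DERL2 had 14.7, 15.4 and 14.5 CPM and then 14.4, 15.1 and 15.9 CPM, with a change of 0.03 (SE 0.0817, adjusted p = 0.821). DERL3 had 30, 22 and 31 counts in the controls and 10, 8 and 7 in siMCT4, or 0.448, 0.344 and 0.491 CPM and then 0.157, 0.115 and 0.0987 CPM. All siMCT4 values were lower, with a log2 change of -1.78 (SE 0.434, adjusted p = 0.0139). With 8 and 7 counts in siMCT4 libraries 2 and 3, below the filter's minimum count of 10, DERL3 was tested only through its control values. SMARCB1 lies across DERL3 on the opposite strand with 13727 counts, far more than DERL3, so these few counts may include its reads. The DERL3 call was lost without control 1 (adjusted p = 0.0557), control 3 (0.0613) or siMCT4 library 2 (0.0515).

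The EDEM proteins, which trim mannose from glycoproteins and mark them for ERAD, did not move together. EDEM1 (ENSG00000134109, chr3:5187646-5219958) had 278, 287 and 275 CPM in the controls and 386, 373 and 375 CPM in siMCT4. It rose by 34.9% with no overlap (log2 change 0.43, SE 0.0392, adjusted p = 0.000134). EDEM3 had 147, 137 and 137 CPM and then 191, 191 and 217 CPM, a rise of 0.51 (SE 0.0641, adjusted p = 0.000662). EDEM2, which makes the first mannose cut, fell instead, with 63.9, 63.4 and 59.4 CPM and then 52.9, 52.9 and 51.6 CPM (log2 change -0.25, SE 0.0518, adjusted p = 0.00725). OS9, the lectin that reads the trimmed sugars, had 267, 269 and 260 CPM and then 307, 328 and 263 CPM (log2 change 0.17, SE 0.0785, adjusted p = 0.116). Its siMCT4 libraries 1 and 2 were above all controls and library 3 was among them, and without library 3 the change was 0.28 (adjusted p = 0.00067).

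Of the 6 sensors and transcription factors, 3 fell, 1 rose and 2 did not pass, with a median log2 change of -0.18 (0.03 on log2(TPM + 1)). No values of the 2 groups overlapped in any of the 6, which was also so in 55.0% of all tested genes, scarce ones included. ERN1, which encodes IRE1, the kinase and RNase that splices XBP1 mRNA, had 62.3, 58.9 and 58.5 CPM in the controls and 52.0, 50.6 and 50.4 CPM in siMCT4. It fell by 0.23 (SE 0.0509, adjusted p = 0.00882). XBP1 (ENSG00000100219, chr22:28794555-28800597), the factor made from the spliced mRNA, had 111, 122 and 117 CPM and then 75.2, 79.0 and 79.6 CPM. The siMCT4 libraries lay together well below the controls, a fall of 33.3% (log2 change -0.58, SE 0.0516, adjusted p = 0.000115). The table counts reads per gene, so spliced and unspliced XBP1 are not separated.

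EIF2AK3 (ENSG00000172071, chr2:88556741-88691518), PERK, which phosphorylates eIF2-alpha, moved the other way, with 44.7, 41.5 and 47.9 CPM in the controls and 56.7, 55.6 and 57.0 CPM in siMCT4. It was the only sensor that rose (log2 change 0.34, SE 0.064, adjusted p = 0.00463). CREB3L2, a membrane-bound factor cut like ATF6 that governs secretory capacity, had 194, 193 and 185 CPM and then 136, 143 and 144 CPM, a fall of 0.43 (SE 0.0443, adjusted p = 0.000244). ATF6 had 191, 178 and 178 CPM and then 175, 171 and 172 CPM (log2 change -0.08, SE 0.0454, adjusted p = 0.209). ATF6B, its paralogue, had 126, 135 and 130 CPM and then 123, 120 and 117 CPM (log2 change -0.12, SE 0.0458, adjusted p = 0.0746). In both, each siMCT4 value was below each control by a margin that did not pass. SEC61B had 24.3, 22.8 and 27.9 CPM and then 31.0, 29.4 and 24.5 CPM (log2 change 0.18, SE 0.114, adjusted p = 0.253), with siMCT4 library 3 among the controls. Without that library its change was 0.30 (adjusted p = 0.0288).

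Ratios of related genes within a library do not depend on the scaling between libraries. The 11 pairs were chosen after their values had been seen, so that the ratios are descriptions, and an exact permutation test of 3 against 3 cannot give a p under 0.1. The FPKM ratio of calreticulin to calnexin was 4.43, 4.34 and 4.42 in the controls and 6.62, 6.66 and 6.83 in siMCT4. That of PDIA4 to P4HB was 0.399, 0.404 and 0.379 and then 0.972, 0.972 and 0.769, with siMCT4 library 3 the nearest to the controls. PDIA3 to P4HB was 0.342, 0.329 and 0.349 and then 0.675, 0.657 and 0.558. Each of these pairs sets a gene called higher over a gene called lower, so their separation follows from the choice. PDIA6, the isomerase with the highest FPKM but fewer CPM than P4HB, was in no pair and did not pass (log2 change 0.04, adjusted p = 0.599). The ratios are not corrected for GC content.

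BiP to GRP94 (HSPA5 to HSP90B1) was 3.40, 3.26 and 3.25 in the controls and 4.14, 4.13 and 4.76 in siMCT4. DNAJC3 to HSPA5 was 0.109, 0.108 and 0.112 and then 0.169, 0.170 and 0.165. EDEM1 to EDEM2 was 1.22, 1.27 and 1.30 and then 2.04, 1.97 and 2.04. EIF2AK3 to ERN1 was 0.663, 0.653 and 0.758 in the controls and 1.01, 1.02 and 1.05 in siMCT4. That is a relative change and does not make the 2 mRNA levels equal, because FPKM depends on the gene lengths used. In mean CPM, EIF2AK3 had 44.7 and ERN1 59.9 in the controls, and 56.5 and 51.0 in siMCT4. EDEM3 to EDEM2 and DERL2 to DERL1 were also higher in every siMCT4 library. The ratios of ERO1A to ERO1B (exact two-sided permutation p = 0.8) and of ATF6 to ATF6B (p = 0.5) overlapped between the groups. In bulk RNA, a change in the share of cells of some state and a change of mRNA within cells cannot be told apart.

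**Figure D3:**
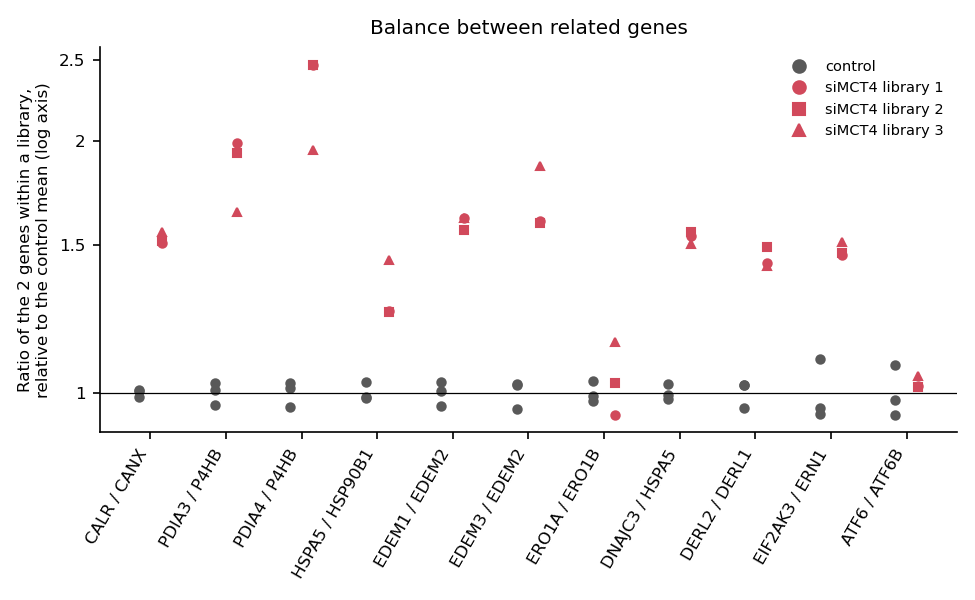
The FPKM ratio of each of 11 pairs of related genes within a library is drawn relative to the control mean (log axis), with controls as grey circles and siMCT4 libraries 1 to 3 as red symbols. In 9 pairs all siMCT4 libraries lie above all controls, and the pairs ERO1A to ERO1B and ATF6 to ATF6B overlap. The pairs were chosen after their values had been seen.

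Set by promoter element, the 11 genes with ERSE or ERSE-II held 1 that rose (CALR), 4 that fell (HSP90B1, CANX, XBP1 and HERPUD1) and 6 that did not pass, with a median log2 change of -0.28. The 22 genes with a RefSeq window and neither element held 6 that rose, 8 that fell and 8 that did not pass, with a median of -0.08. Outside the 36 genes, 19 tested genes had either element, of which 3 rose, 5 fell and 11 did not pass (median -0.04). The difference between these sets was not tested. Among the 7 genes that rose and have a RefSeq window, CALR alone had an element of these letters. No match says only that these exact letters are absent from the window.

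The promoters of 3 genes are shown, each as the 250 bases before the start, with ERSE letters in capitals: HSPA5, whose level did not pass the test, HSP90B1, which fell, and PDIA4, which rose and has CCAAT on both strands but no complete ERSE. They are examples and stand for no difference between the sets: 4 of 11 genes with an element and 8 of 22 without one fell, and P4HB, with neither element, fell more than HSP90B1.
HSPA5, chr9:125241344-125241593, minus strand: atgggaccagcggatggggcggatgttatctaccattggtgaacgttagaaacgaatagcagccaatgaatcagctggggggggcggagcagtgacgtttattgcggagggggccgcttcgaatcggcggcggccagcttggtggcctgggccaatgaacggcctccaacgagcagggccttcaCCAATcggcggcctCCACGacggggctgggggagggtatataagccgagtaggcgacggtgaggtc
HSP90B1, chr12:103930160-103930409, plus strand: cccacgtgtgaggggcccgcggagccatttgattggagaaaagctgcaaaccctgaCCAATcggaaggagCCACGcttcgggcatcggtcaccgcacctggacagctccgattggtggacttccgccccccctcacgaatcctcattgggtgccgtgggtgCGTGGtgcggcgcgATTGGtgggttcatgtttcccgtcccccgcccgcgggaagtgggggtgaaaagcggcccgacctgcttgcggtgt
PDIA4, chr7:149028491-149028740, minus strand: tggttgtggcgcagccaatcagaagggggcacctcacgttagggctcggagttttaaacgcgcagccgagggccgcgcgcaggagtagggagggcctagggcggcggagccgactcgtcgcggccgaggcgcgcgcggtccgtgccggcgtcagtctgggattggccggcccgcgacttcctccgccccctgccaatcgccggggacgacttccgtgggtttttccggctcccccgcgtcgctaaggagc

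**Figure D4:**
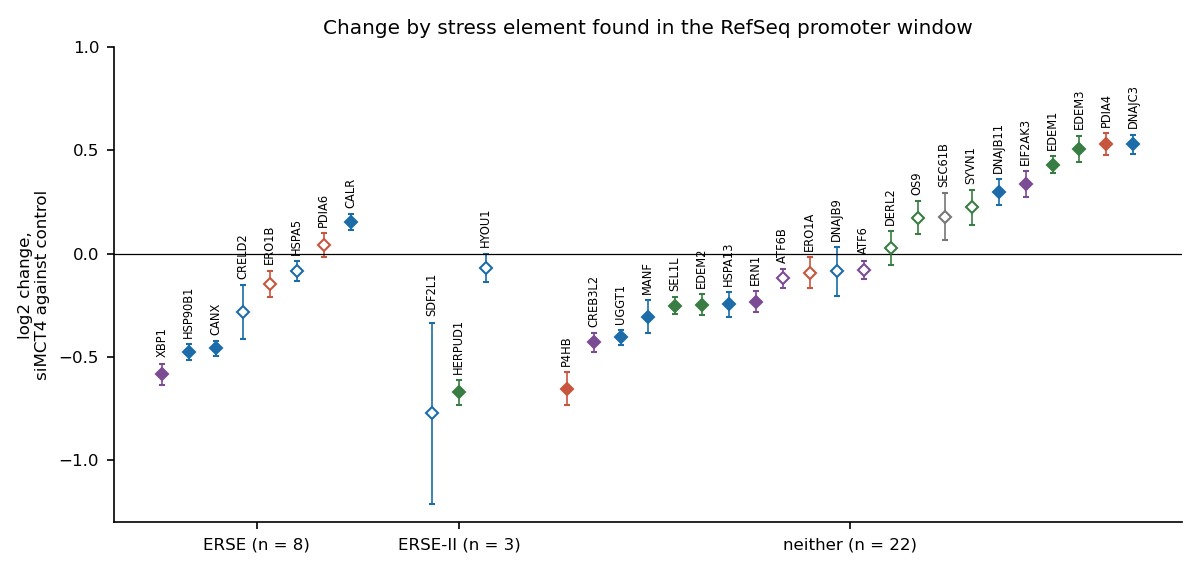
The log2 change (edgeR estimate ± SE, filled where the gene passed, coloured by role as in the plot of changes) of the 33 genes with a RefSeq promoter window is drawn by the element found. Of the 8 genes with ERSE only CALR is called higher, and the 6 other called rises are in genes with neither element.

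Genes around these in the same pathway were taken from 7 lists of 103 genes, of which 101 were tested: 26 rose, 32 fell and 43 did not pass, with a median log2 change of 0.00. The called share was 57.4%, beside 41.4% of all tested genes, and at 10 CPM or more it was 60.6% (57 of 94), beside 60.4% of all genes at that level. Translocation into the ER had 4 rising and 9 falling genes of 18. The signal recognition particle subunit SRP54 rose by 0.62 (adjusted p = 2.41e-05) and the translocon-associated SSR2 by 0.41 (0.00294), while SSR3 (log2 change -0.39, adjusted p = 0.000381) and SSR1 (-0.34, 0.00105) fell. Of 11 tested subunits of the oligosaccharyltransferase, which attaches sugars to new proteins, 1 fell and 10 did not pass. The 1 that fell was STT3B, a catalytic subunit but not the only one (log2 change -0.35, adjusted p = 0.00171). Among 19 other disulfide and proline isomerases, 9 rose and 5 fell. QSOX1, a sulfhydryl oxidase of the Golgi and of secretions, went from 341 ± 5.13 to 765 ± 13.0 CPM (SD, n = 3), a log2 change of 1.17 (adjusted p = 1.13e-06), which is larger than that of any of the 6 disulfide enzymes above. TXNDC11 rose by 0.95 (9.84e-06), and DNAJC10, an ER reductase, fell by 0.61 (9.76e-05), as did TMX4 (log2 change -0.55, adjusted p = 0.00724).

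Of 20 other ERAD genes, 6 rose and 4 fell. HERPUD2, the homologue of HERPUD1, rose from 20.2 ± 2.48 to 40.7 ± 1.57 CPM (log2 change 1.01, adjusted p = 0.000161), opposite to HERPUD1. The paired scaffold genes also differed in direction, with ERLIN1 up by 0.55 (adjusted p = 0.000541) and ERLIN2 lower by a log2 change of -0.42 (0.000692). TRAM2, a translocation protein that the list also held, fell by 1.24 (0.000386). Of 15 genes of ATF6 processing and UPR regulation, 4 rose and 3 fell. The site-2 protease MBTPS2, which cuts ATF6 and CREB3L2 in the membrane, went from 71.3 ± 3.20 to 42.7 ± 0.995 CPM (log2 change -0.74, adjusted p = 4.90e-05). CREB3 rose by 0.71 (0.000795). NF-Y, the factor known to bind the CCAAT of ERSE, had 1 of its 3 subunits lower, NFYC (log2 change -0.46, adjusted p = 0.000119), and 2 higher, NFYA (0.17, adjusted p = 0.0128) and NFYB (0.28, adjusted p = 0.0426, named here to complete the 3).

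In the list for the PERK arm, which is not limited to targets of PERK, 8 of 12 genes fell, 3 rose and 1 did not pass. Their median log2 change was -0.77, while EIF2AK3 itself rose. The amino acid stress gene ASNS fell by 1.16 (adjusted p = 4.98e-06) and VLDLR had a log2 change of -1.52 (9.89e-07), while ATF3 rose by 0.87 (5.68e-05) and PPP1R15B, which directs dephosphorylation of eIF2-alpha, by 0.68 (0.000118). Many genes of this list also answer to other kinases of eIF2-alpha. The ER-phagy list, of receptors that deliver ER membrane to the lysosome, had 2 falling genes of 6. RETREG1, also known as FAM134B, went from 44.6 ± 1.85 to 17.4 ± 1.79 CPM (log2 change -1.36, adjusted p = 2.68e-05), and RTN3 fell by 0.67 (0.000449).

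**Figure D5:**
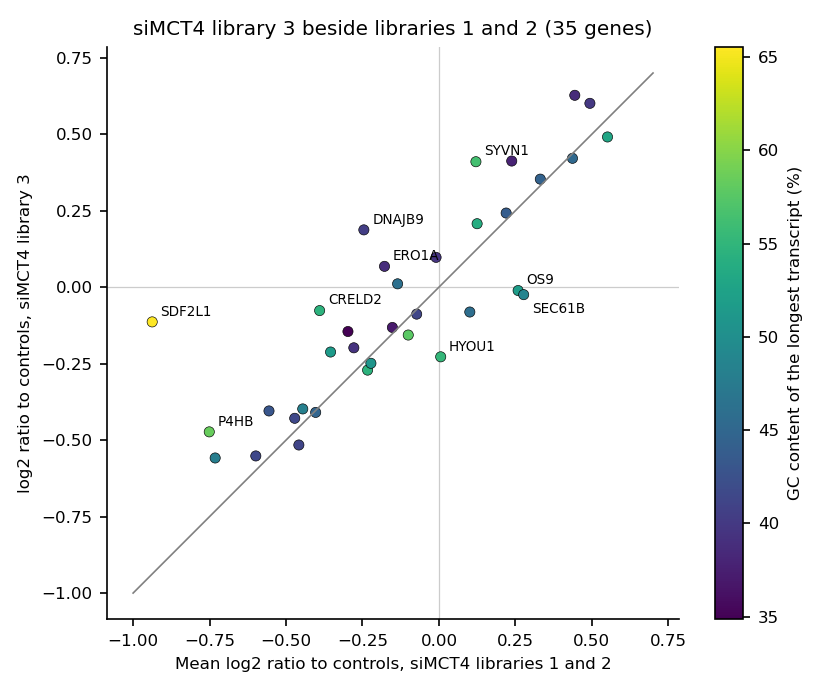
For each gene except DERL3, which lies beyond the axes, the log2 ratio to the control mean in siMCT4 library 3 is plotted against the mean of siMCT4 libraries 1 and 2, coloured by GC content; the line marks equal values. Most genes lie near the line, and SDF2L1, with a GC content of 65.5%, lies farthest above it.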

How the data were processed

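RNA-seq of 6 libraries was analysed (3 control, 3 siMCT4, grouped by the genotype label). The authors deposited 1 table with raw counts and FPKM per gene. Per the submitters' processing notes, the tools were cutadapt 1.9 and HISAT2 2.2.1 on GRCh38. For the counting tool, annotation release and strand setting: not given in the sources used here. Of counts between 2 and 41, 58.7% to 60.9% per library were even, so single counts may not be independent fragments.

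The counts were tested with edgeR 4.0.16 (R 4.3.3): TMM scaling, filterByExpr with a minimum count of 10 and total of 15, quasi-likelihood F test, two-sided, Benjamini-Hochberg adjustment over 19944 genes and a threshold of 0.05. Of the deposited FPKM, levels and ratios within a library were used. Alternatives were RLE factors, DESeq2 1.42.0, no filter or a mean count of at least 100, limma 3.58.1 on log2 of FPKM or TPM plus a pseudocount, a GC correction (spline with 5 degrees of freedom on the GC content of the longest GENCODE 29 transcript), a replicate block, both together, each library left out, and siMCT4 library 3 alone. The fits were tested on simulated data. Motifs were searched in RefSeq promoter windows (GRCh38.p14). PDIA3, DERL1 and DERL3 had no window in the table used.

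The text names all 36 genes, SLC16A3, and at most the 2 genes of smallest adjusted p per direction in each pathway list, and CSF1R and CD79A of the marker lists. The members and lists were chosen with earlier results of these data known, so they are no independent support. The libraries were not paired by their numbers in the main fit, as given in the closing section.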

Additional observations from a re-analysis of the deposited data

How the results depend on the processing

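Of the 22 called ER genes, 13 kept their call in each of the 17 alternatives that were run, and 0 changed sign. The other 9 lost it at least once: HSPA13 and MANF in 8, CALR in 5, EDEM2 in 4, ERN1 in 3, DNAJB11, PDIA3 and SEL1L in 1 each, and DERL3 in 6 of 16. Of the 14 that did not pass, 11 passed at least once. Also of the 14, 11 had both signs among the fits (HSPA5, HYOU1, DNAJB9, SDF2L1, PDIA6, ERO1A, ERO1B, DERL2, ATF6, ATF6B and SEC61B), and DNAJB9 passed with the opposite sign with siMCT4 library 3 alone (0.21). Genes called lower ranged from 9 (TPM) to 18 and higher from 5 (replicate block with GC correction) to 12, with 6569 to 9708 genes called in all. The median of the per-gene shifts from the main fit was 0.189 on log2(TPM + 1) and 0.104 on log2(FPKM + 0.1). On log2(TPM + 1), 6245 genes were called higher and 2886 lower, beside 4116 and 4144 in the main fit.

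On log2(FPKM + 1), log2(FPKM + 0.1) and log2(TPM + 1) the medians of the roles were -0.132, -0.137 and -0.0448 for chaperones, 0.0802, 0.0810 and 0.173 for disulfide enzymes, 0.00127, -0.0039 and 0.0801 for ERAD and -0.0492, -0.0636 and 0.0276 for sensors. With a mean count of at least 100 they were 0.00166 for disulfide enzymes and 0.0534 for ERAD, where DERL3 was no longer tested. For disulfide enzymes the GC correction gave -0.0967, and -0.0984 with the block. With siMCT4 library 3 alone, chaperones were at -0.126, disulfide enzymes at 0.0121 and ERAD at -0.0856. Leaving out 1 library gave -0.273 to -0.140 for chaperones (-0.140 without control replicate 1), -0.0407 to 0.00478 for disulfide enzymes, -0.130 to -0.0653 for ERAD and -0.187 to -0.137 for sensors. Of the other pathway genes, 46 were called higher and 16 lower on TPM, and leaving out 1 library gave 17 to 32 higher (17 without control replicate 2) and 22 to 34 lower.

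Same-numbered libraries did not deviate together (correlations of -0.0616, -0.0029 and -0.0547), and they were not treated as pairs in the main fit. These correlations cannot show whether the libraries were prepared in pairs. With a replicate block, 13 ER genes were lower, 7 higher, and 6921 genes called. Depth limits DERL3, with 7 to 31 counts per library, and little else among the 36.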
